A study of Mus musculus with 3 samples.

Results

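The cells described here are those that carry cluster code 7 in the deposited tables of the D10 culture and the E14.5 tail. They number 343 of the 9873 cells of these 2 libraries. The code was taken as the authors gave it, so that members were chosen by the clustering and not by a value measured here. The clustering itself used the expression of the genes, and was made over both libraries together, so that every ratio of cluster 7 over other cells is a description and was not tested. Cluster 7 held 257 of the 7821 culture cells (3.29%, 95% Clopper-Pearson interval 2.90 to 3.71%) and 86 of the 2052 tail cells (4.19%, 3.37 to 5.15%). These intervals, and all others given, cover counting error only. It held smaller shares of the RNA, 0.884% of the UMIs (unique molecular identifiers, 1 per captured transcript) of the culture and 0.711% of those of the tail.

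The study asked how far tendon and fibrocartilage cells made from mouse embryonic stem cells resemble those of the embryo. The culture came from a stem cell line with the ScxGFP reporter, a transgene that marks tendon cells. Embryoid bodies were formed with 500 nM LDN-193189, a BMP inhibitor, and paraxial mesoderm (PM) was induced with LDN-193189 and 5 µM CHIR, a Wnt agonist. From D6 the cells received 10 ng/mL TGFβ1, 100 nM of the hedgehog agonist SAG and 10 ng/mL FGF2, and were collected at D10. The tail was cut from embryos at E14.5, and the number of embryos is not given in the sources used here. The D6 PM library, with 5954 of the 15827 cells of the series, was clustered by itself and has no code 7. Each condition is 1 library, so that differences between culture and tail cannot be told apart from differences between libraries. Dead cells had been depleted with Annexin V, which binds phosphatidylserine exposed on dying cells, and cells with over 7.5% mitochondrial transcripts had been removed by the authors.

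A cell's transcripts do not all sit in the same place. *Malat1* and *Kcnq1ot1* are long non-coding RNAs kept in the nucleus, the transcripts of the mitochondrial genome stay inside mitochondria, and mRNAs of collagens and other secreted or membrane proteins are translated on the endoplasmic reticulum (ER). mRNAs of ribosomal proteins, actin and thymosins are translated free in the cytosol. *Scx* encodes scleraxis, the transcription factor that marks tendon progenitors, and is itself translated in the cytosol. Tendon cells are otherwise known by the fibrillar collagens and small proteoglycans they secrete.

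Cluster 7 was the shallowest cluster in each library. In the culture its cells held a median of 1424 UMIs (quartiles 1094 and 2106, range 757 to 17979) from a median of 910 genes. The other culture cells held a median of 5772.5 UMIs from 2730 genes, and the next shallowest cluster of any size, cluster 6, held 2399. In the tail cluster 7 cells held a median of 1881 UMIs (quartiles 1197 and 3066, range 891 to 18762) from 1119 genes, against 13762.5 UMIs from 4726.5 genes in the other tail cells. The medians of cluster 7 were 25.3% and 13.9% of those of the whole libraries, for which reason the cluster is given no cell type name here. At this depth a gene without a UMI in a cell may still be expressed there. Just 3 cells of cluster 7 lay above 10000 UMIs, 1 in the culture and 2 in the tail. No cluster 7 barcode was shared between libraries, and 3 of its culture cells and 0 of its tail cells were called as doublets.

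**Figure D1:**
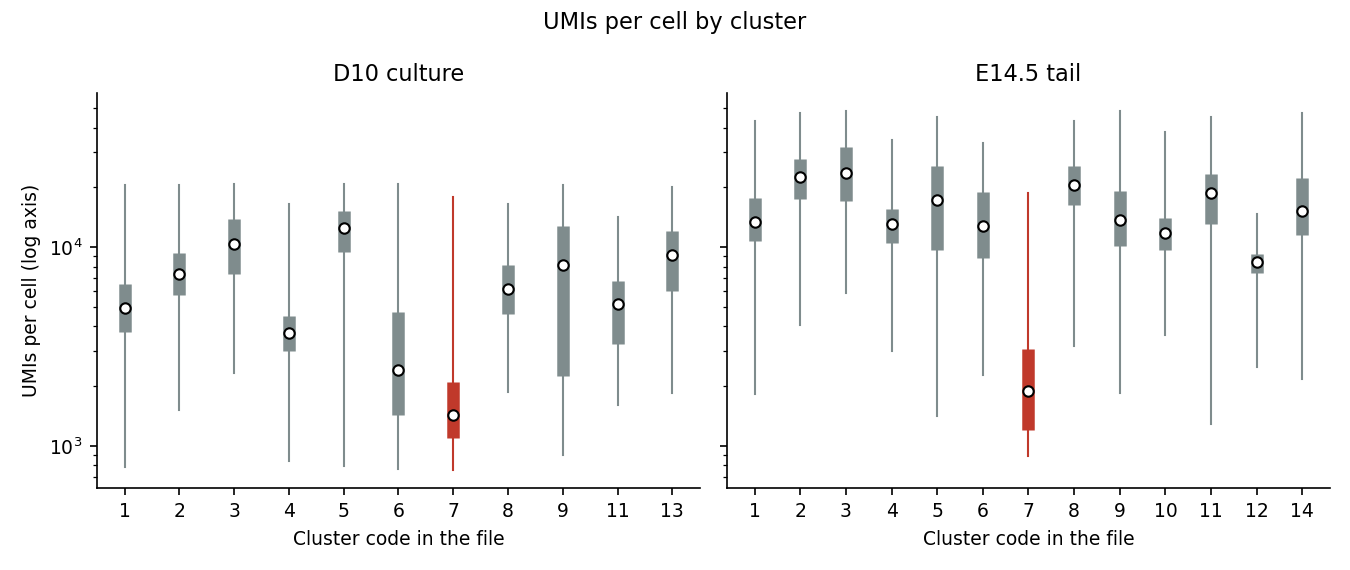
UMIs per cell (log axis) for each cluster with at least 10 cells in the D10 culture (left) and the E14.5 tail (right), with the median (circle), the quartiles (thick bar) and the range (thin line), and cluster 7 in red. Cluster 7 has the lowest median in both libraries, 1424 UMIs in the culture and 1881 in the tail, and its long upper line ends at single cells of 17979 and 18762 UMIs.

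Nuclear RNA was low in cluster 7 of both libraries. The nuclear RNA list made up 0.199% of the UMIs of the culture cluster, 1.17% of those of the other culture cells and 1.88% of those of other cells of like depth (no deeper than the 95th percentile of cluster 7), and in the tail these shares were 0.308%, 1.89% and 1.91%. *Malat1* stood at 1896 CPM (UMIs of the gene per 1000000 UMIs summed over the cells; 95% Poisson interval 1774 to 2025) in the culture cluster and at 11215 CPM in the other culture cells, 5.91-fold lower. In the tail it stood at 2472 CPM (2269 to 2687) in cluster 7 and at 14947 CPM in the other cells, 6.05-fold lower. *Kcnq1ot1*, the antisense RNA of an imprinted potassium channel locus, was 8.53-fold lower in the culture and 13.3-fold lower in the tail, on 14 and 16 UMIs. *Meg3*, an imprinted non-coding RNA, was 5.82-fold and 9.38-fold lower. Without the cell richest in the gene the log2 ratio of *Meg3* went from -2.54 to -4.86 in the culture, and that of *Malat1* from -2.60 to -3.63 in the tail. That of *Kcnq1ot1* went from -3.09 to -3.84 in the culture and from -3.74 to -4.61 in the tail. All members of the nuclear RNA list with enough UMIs to be compared, 4 in the culture and 5 in the tail, were at least 2-fold lower than in the other cells. Of all genes compared, 19.7% in the culture and 17.6% in the tail were lower.

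The low *Malat1* was a feature of most cells and not only of their sum. With every cell thinned to 700 UMIs, 179 of the 257 culture cells of cluster 7 had no *Malat1* UMI (69.6%, 63.6 to 75.2%), against 5.21% of the other culture cells. Among the 1574 other cells of like depth the share was 10.2%. In the tail 53 of 86 cells had none (61.6%, 50.5 to 71.9%), against 9.61% of the other cells and 23.6% of the 89 other cells of like depth. Only cluster 12 of the tail, whose UMIs came from a median of 328.5 genes and largely from haemoglobin, had a higher share, 93.0%. Before thinning, 160 culture cells (62.3%) and 34 tail cells (39.5%) of cluster 7 had no *Malat1* UMI.

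**Figure D2:**
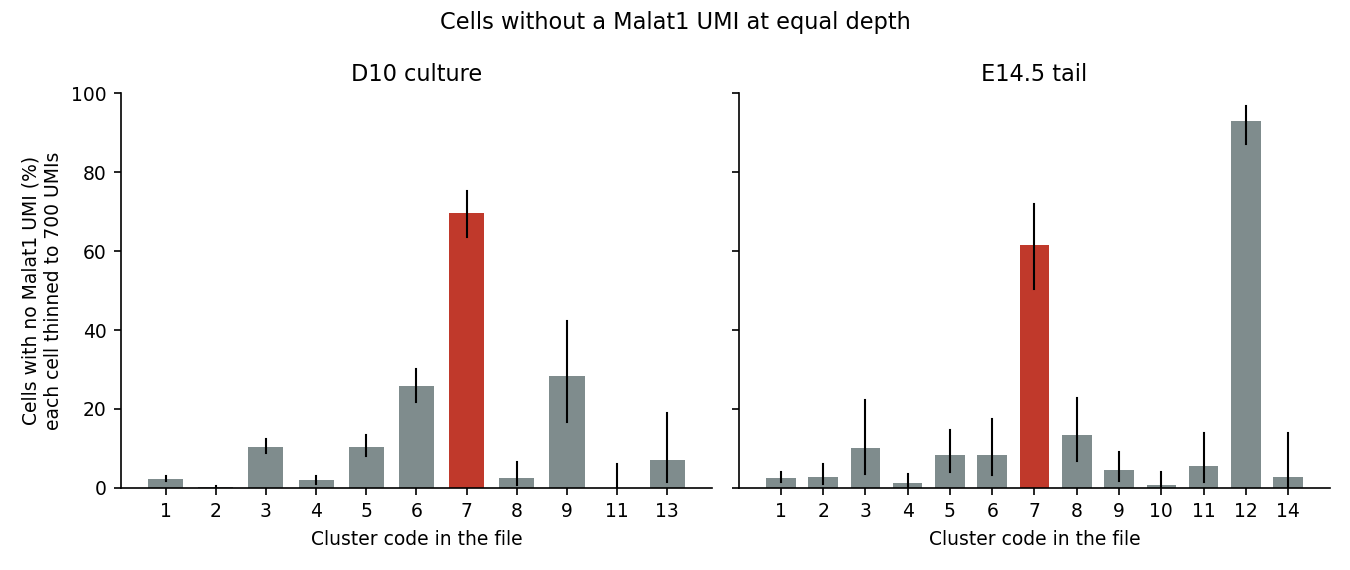
Percentage of cells with no *Malat1* UMI after each cell was thinned to 700 UMIs, for each cluster with at least 10 cells in the D10 culture (left) and the E14.5 tail (right), with 95% Clopper-Pearson intervals as lines and cluster 7 in red. Cluster 7 stands at 69.6% in the culture, where the next clusters are 9 (28.3%) and 6 (25.7%), and at 61.6% in the tail, where only cluster 12 (93.0%) is higher.

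Transcripts of the mitochondrial genome were low in cluster 7 of both libraries. Their share of all UMIs was 0.418% in the culture cluster and 1.78% in the other culture cells, and the median cell of cluster 7 held 0.0433% against 1.72%. No mitochondrial UMI at all was found in 113 of the 257 culture cells. *mt-Cytb*, which encodes cytochrome b, stood at 538 CPM in cluster 7 and 2920 CPM in the other cells, and *mt-Co1*, a subunit of cytochrome oxidase, was 6.80-fold lower. In the tail the share was 1.17% against 2.93%, the medians over cells were 0.186% and 3.02%, and 16 of 86 cells had no mitochondrial UMI. Cluster 7 was not the lowest of the tail, where clusters 6 (0.794%, median 0.174%) and 12 (1.02%) had lower shares. *mt-Cytb* stood at 2041 CPM in the tail cluster and 5773 CPM in the other tail cells, a smaller gap than in the culture. The 10 mitochondrial genes compared in the culture and the 9 in the tail were all at least 2-fold lower, beside 19.7% and 17.6% of all genes. At 700 UMIs, 145 culture cells of cluster 7 (56.4%, 50.1 to 62.6%) had no *Malat1* and at most 1 mitochondrial UMI, as had 24 tail cells (27.9%, 18.8 to 38.6%). Of the other cells 1.03% and 1.02% met both, and of the cells of like depth 71 of 1574 in the culture (4.51%) and 0 of 89 in the tail.

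Set against all other cells of its library, cluster 7 had more genes lower than higher. A gene was compared if it had at least 20 UMIs observed or expected in cluster 7, and was counted at a ratio of 2-fold. Of 4982 genes compared in the culture, 158 were at least 2-fold higher (3.17%) and 980 at least 2-fold lower (19.7%), with a median log2 ratio of -0.04. Of 2734 genes compared in the tail, 268 were higher (9.80%) and 482 lower (17.6%), with a median of 0.28. The log2 ratios of the lists are read beside these medians, and the counts of their members beside these shares. Set against a mix of the other clusters weighted by the closest cluster of each cluster 7 cell (given further on), the higher genes numbered 95 in the culture and 87 in the tail. With no minimum of UMIs the counts were 12960 higher and 3083 lower in the culture, and 13780 and 2563 in the tail. There a gene without a UMI in cluster 7 was set to 3 counts, so that genes absent from cluster 7 can be counted as higher. Those counts are therefore not read as a direction. In the tail the higher genes outnumbered the lower ones against other cells of like depth (822 and 561). They also did over the cluster 7 cells with no *Malat1* UMI (126 and 91). More than 50% of the UMIs of a higher gene came from 1 cell for 1 gene in the culture and for 16 in the tail.

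Genes of the ER and of the secretory route were low in both libraries. Of the 20 compared in the culture 16 were at least 2-fold lower and none higher (median log2 ratio -1.68), and of the 18 compared in the tail 14 were lower and none higher (-1.66). As a share of UMIs, clusters 6, 10 and 12 of the tail held less of these genes (0.189%, 0.334% and 0.0183%) than cluster 7 (0.408%). *Hspa5*, the main ER chaperone, stood at 322 CPM (273 to 378) in the culture cluster and 1254 CPM in the other cells, and at 377 CPM (301 to 466) against 915 CPM in the tail, where 61.9% of its UMIs came from 1 cell, without which its log2 ratio of -1.28 was -2.54. *Calr*, calreticulin, which holds calcium in the ER and folds glycoproteins, was 2.94-fold lower in the culture and 3.71-fold lower in the tail. *Sparc*, a secreted matrix glycoprotein, was 2.98-fold lower in the culture and 1.83-fold lower in the tail. The other 4 genes in each library were within 2-fold, and the one of them above the other cells was *Sec61b*, a small subunit of the protein channel of the ER membrane, at 1083 CPM (991 to 1181) against 658 CPM in the culture and 713 CPM (607 to 833) against 531 CPM in the tail.

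Secreted matrix genes gave the same picture. Of 27 compared in the culture 23 were at least 2-fold lower (median -2.10), and of 23 compared in the tail 22 were (-2.61), with none higher in either. *Fn1*, fibronectin, stood at 295 CPM (248 to 348) in the culture cluster and 1742 CPM in the other cells, 5.91-fold lower, and was 3.11-fold lower in the tail on 29 UMIs (log2 ratio -1.64, and -2.91 without the cell richest in it). *Mgp*, the matrix Gla protein, was the one member of the list within 2-fold in the tail, where 64.9% of its 37 UMIs came from 1 cell, without which its log2 ratio of 0.24 was -1.14. In the culture it stood at 985 CPM (898 to 1079) against 1271 CPM, also within 2-fold. As a share of UMIs, secreted matrix genes were not lowest in cluster 7 (0.354% in the culture, 0.131% in the tail). Clusters 3, 5 and 6 of the culture held less (0.0783%, 0.109% and 0.268%), as did clusters 10 and 12 of the tail (0.0476% and 0.00678%).

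*Scx*, the marker proposed for these cells, was detected in 179 of 257 cells of the culture cluster and in 19 of 86 cells of the tail cluster. In the culture it stood at 2388 CPM (2251 to 2532) against 1468 CPM in the other cells. This level was the third highest of the clusters in the culture, after cluster 2 (2699 CPM) and cluster 1 (2410 CPM, 2387 to 2434), and its interval overlapped that of cluster 1. At 700 UMIs a *Scx* UMI was found in 54.9% (48.6 to 61.1%) of the cluster 7 cells, 41.6% of the other cells of like depth, 62.3% of cluster 1 and 4.23% of cluster 3, in which *Scx* was low. Cells of cluster 3 were deep (median 10369.5 UMIs against 1424), and the background from free RNA at the depth of cluster 7 was not measured. In the tail 59.1% of the 186 *Scx* UMIs of cluster 7 came from 1 cell. Its level was 834 CPM (719 to 963) against 959 CPM in the other tail cells, and the log2 ratio went from -0.20 to -1.46 when that cell was left out. With that cell kept, the log2 ratio was 1.44 against other tail cells of like depth and 0.63 against the mix of closest clusters, so that its direction depends on the cells it is set against. At 700 UMIs 17.4% (10.1 to 27.1%) of the tail cells of cluster 7 had a *Scx* UMI, against 18.0% of the other tail cells, 8.99% (8 of 89 cells) of those of like depth, 24.2% of cluster 1 and 1.56% of cluster 12. The ScxGFP transcript had 17 UMIs in the culture cluster and 11 in the tail cluster, too few to compare.

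The rest of the tendon list did not follow *Scx*. Of 14 tendon genes compared in the culture and 11 in the tail, all but *Scx* were at least 2-fold lower, with medians of -2.46 and -2.94. *Col1a1*, the main chain of type I collagen, stood at 233 CPM (192 to 281) in the culture cluster and 1467 CPM in the other cells, and was found in 60 of the 257 cells. *Col1a2*, its partner chain, stood at 180 CPM (144 to 223) against 1004 CPM. *Col3a1*, type III collagen, was 7.48-fold lower. *Dcn*, the proteoglycan decorin, stood at 229 CPM (188 to 276) against 934 CPM, and *Postn*, periostin, was 5.30-fold lower. In the tail *Col1a1* stood at 220 CPM (163 to 291) against 1688 CPM, in 15 of 86 cells, and 25 of its 49 UMIs came from 1 cell, without which its log2 ratio of -2.94 was -3.94. *Dcn* was 8.29-fold lower in the tail. *Postn* had 1 UMI in the tail cluster. Set against cluster 1 alone, which had the second highest *Scx* of the culture, cluster 7 had a *Scx* ratio of 0.991 (0.933 to 1.05) and a *Col1a1* ratio of 0.0850. In the tail, where 1 cell held most of the *Scx* UMIs and 1 cell 51.0% of those of *Col1a1*, these ratios were 0.567 (0.488 to 0.655) and 0.0690. The culture cluster thus had the *Scx* level of cluster 1 and a *Col1a1* level far below it. Cartilage genes were low as well, with 7 of 7 compared at least 2-fold lower in the culture and 6 of 8 in the tail. The shares over all genes were 19.7% and 17.6%.

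**Figure D3:**
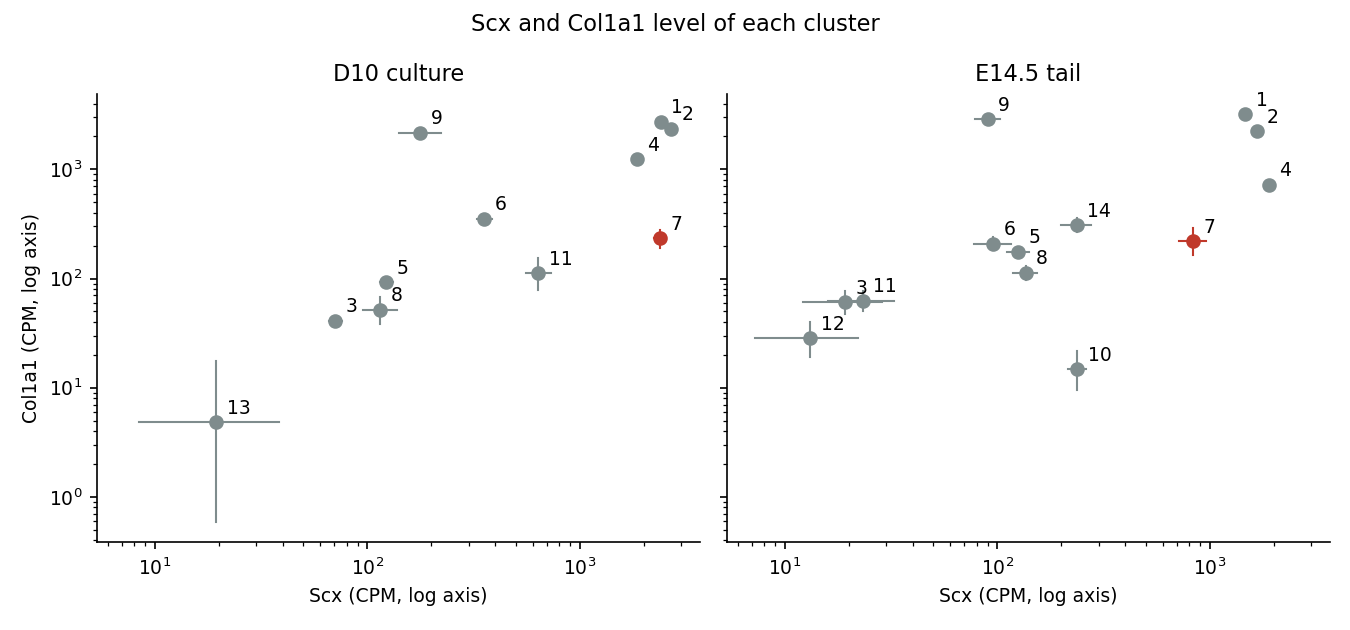
*Scx* (x) against *Col1a1* (y) in CPM of summed UMIs, both on log axes, for each cluster of the D10 culture (left) and the E14.5 tail (right), numbered by code, with 95% Poisson intervals as lines and cluster 7 in red. In the culture cluster 7 lies at the *Scx* level of cluster 1 (2388 and 2410 CPM) and below it in *Col1a1* (233 and 2741 CPM).

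Genes of the actin cytoskeleton were higher than in the pooled other cells. Of 22 compared, 10 were at least 2-fold higher in the culture (median 0.95) and 7 in the tail (0.82), and none was lower. Of all genes 3.17% and 9.80% were higher. Together the actin genes made up 4.66% of the UMIs of the culture cluster. They made up 2.23% of those of the other cells and 2.19% of those of the other cells of like depth. In the tail these shares were 3.29%, 1.81% and 1.96%. *Tmsb4x*, thymosin beta, which binds actin monomers, stood at 18945 CPM (18554 to 19342) in the culture cluster and 7917 CPM in the other cells, and was found in 253 of the 257 cells. In the tail it stood at 10653 CPM (10229 to 11090) against 4095 CPM and was found in 85 of the 86 cells. Cluster 11 of the tail, to which 19 of these cells were closest, stood above cluster 7 in *Tmsb4x* (16149 CPM) and in the share of actin genes (4.24%). *Cotl1*, which binds actin filaments, was 2.84-fold higher in the culture and 2.20-fold higher in the tail, and *Tagln2*, transgelin 2, was 2.50-fold and 2.94-fold higher. *Actb*, beta-actin, was 1.63-fold and 1.36-fold higher, within 2-fold in both.

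Annexins, S100 proteins and galectins are small cytosolic proteins, of which the first bind membranes in the presence of calcium. They were higher for 8 of 13 genes in the culture (median 1.20) and 5 of 11 in the tail (0.82), with none lower. Among all genes 3.17% and 9.80% were higher. *Anxa1* stood at 345 CPM (294 to 403) in the culture cluster and 48.9 CPM in the other cells, and at 350 CPM (277 to 437) against 62.5 CPM in the tail. It was found in 67 culture cells and 20 tail cells. *S100a11* was 3.28-fold higher in the culture and 2.31-fold higher in the tail, in 157 and 61 cells. *S100a6* differed between the libraries. It stood at 1776 CPM (1657 to 1900) against 187 CPM in the culture, in 59 cells, and at 130 CPM (87.1 to 187) against 91.7 CPM in the tail. *Lgals1*, galectin 1, was 2.45-fold higher in the culture and 1.13-fold higher in the tail.

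Contractile genes of smooth muscle and myofibroblasts were mostly higher in the culture cluster and within 2-fold in the tail cluster, a difference that was not tested. Of 8 compared in the culture 7 were at least 2-fold higher (median 1.77), and of 7 compared in the tail none was (-0.17). The shares over all genes were 3.17% and 9.80%. *Acta2*, smooth muscle actin, stood at 1566 CPM (1455 to 1683) in the culture cluster and 195 CPM in the other cells, 8.01-fold higher. It was found in 95 of the 257 cells, and 18.4% of its UMIs came from 1 cell. *Tagln*, transgelin, was 5.43-fold higher, in 117 cells. In the tail *Acta2* stood at 126 CPM (83.5 to 182) against 207 CPM.

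Keratins, which form the intermediate filaments of epithelia, were higher in each library. *Krt8* was at least 2-fold higher in both, in the tail from 2 cells. In the culture cluster *Krt8*, *Krt18* and *Krt19*, keratins of simple epithelia, were 7.36-fold, 6.68-fold and 7.40-fold higher. *Krt18* stood at 1085 CPM (993 to 1183) against 162 CPM, in 48 of the 257 cells. In the same cluster *Epcam* and *Cdh1*, membrane proteins by which epithelial cells adhere, were 4.77-fold and 5.38-fold lower, on 31 and 4 UMIs. *Sfn*, the 14-3-3 sigma protein of epithelia, was 6.56-fold higher in the culture and 5.52-fold higher in the tail. In the tail cluster *Krt14* and *Krt5*, keratins of the basal epidermis, were 2.30-fold and 2.40-fold higher, in 19 and 24 of the 86 cells. Without the cell richest in each, their log2 ratios were 0.98 and 0.90, below 2-fold. *Krt1* and *Krt10*, keratins of the upper epidermis, were 10.4-fold and 4.52-fold higher, in 16 and 22 cells. *Krt8* had 56 UMIs in 2 cells of the tail cluster, of which 87.5% came from 1 cell. *Krt19*, 3.12-fold higher, had 34 UMIs in 2 cells, of which 73.5% came from 1. Without that cell the tail log2 ratio of *Krt19* was -0.15, so that its direction there rests on 1 cell. The epithelium list as a whole had 3 genes higher and 2 lower of 5 in the culture, and 5 higher and none lower of 6 in the tail. Its medians of 1.14 and 1.45 turned to -0.78 and -0.0811 against the mix of closest clusters, as did *Krt14* (-0.35) and *Krt5* (-0.29) of the tail, and *Epcam* and *Cdh1* stood above cluster 1 alone (log2 ratios of 2.46 and 2.97).

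Cytosolic and nuclear-encoded mitochondrial genes stayed near the median of all genes or above it. The 63 ribosomal protein genes had medians of 0.31 in the culture and 0.77 in the tail, with none and 7 at least 2-fold higher. The 35 and 31 proteasome genes had medians of 0.37 and 0.58. The 73 and 71 nuclear-encoded genes of oxidative phosphorylation had medians of 0.44 and 0.60, with 1 and 7 at least 2-fold higher and none lower, whereas the mitochondrial genome's own genes had medians of -2.43 and -1.50. Tubulin genes had medians of 0.68 and 0.61. Glycolysis genes stood at -0.14 in the culture, where 2 of 14 were lower, and at 0.94 in the tail, where 3 of 11 were higher. One of the 2 was *Slc2a1*, the glucose transporter of the plasma membrane, at 86.9 CPM (62.3 to 118) against 374 CPM. In the tail its log2 ratio was 0.34, and -1.31 without the cell richest in it. mRNAs of spliceosomal and other nuclear proteins stood at -0.41 and -0.23, with 4 and 0 of 20 lower. Beside these counts stand 9.80% of all tail genes higher and 19.7% of all culture genes lower, to which the 7 ribosomal protein, 7 oxidative phosphorylation and 4 spliceosomal genes are near.

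**Figure D4:**
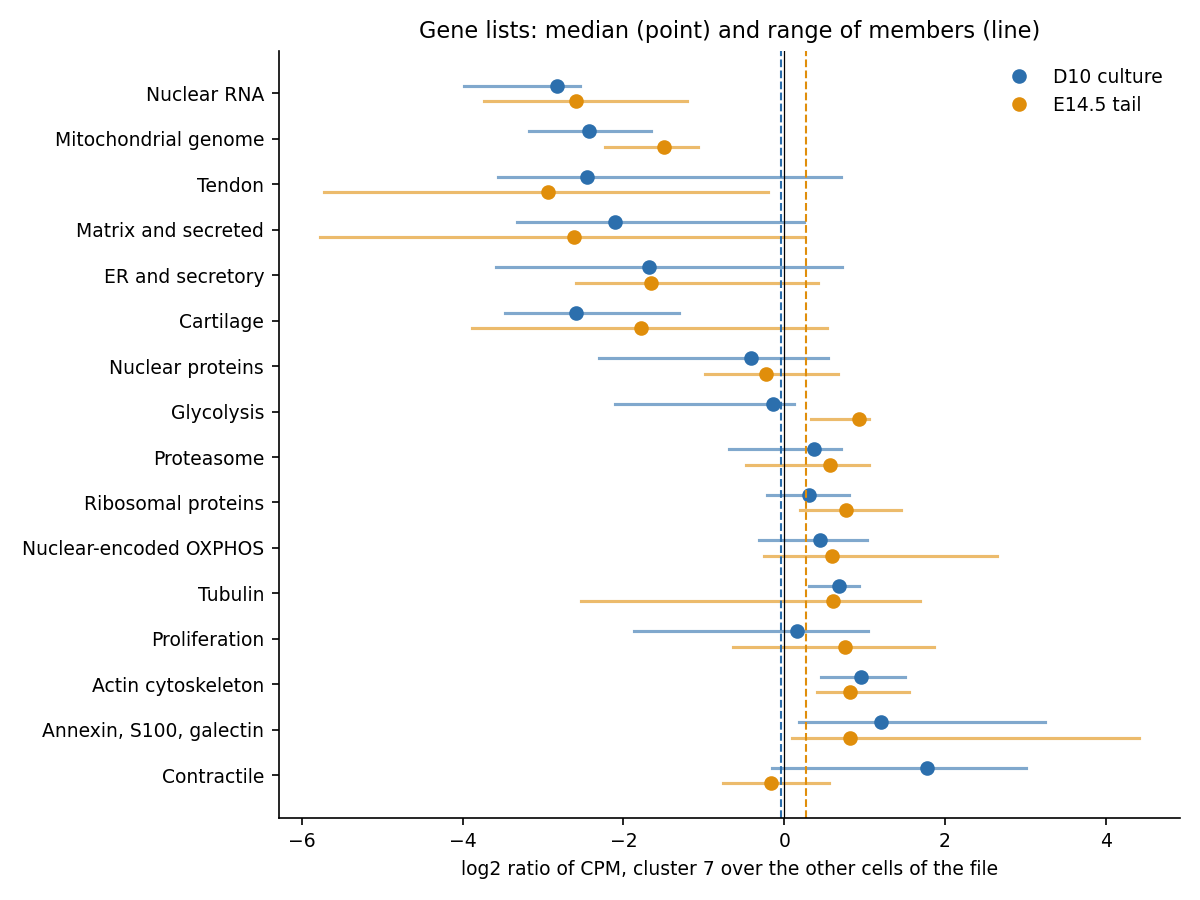
Median (point) and range (line) of the log2 ratio of CPM, cluster 7 over the other cells of the same library, for the compared members of each gene list, in the D10 culture (blue) and the E14.5 tail (orange). Dashed lines mark the medians over all genes compared, -0.04 and 0.28. Nuclear RNA, the mitochondrial genome, tendon, matrix, ER and cartilage lists have medians below -1 in both libraries, and the contractile list stands at 1.77 and -0.17.

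Gene families grouped by where their proteins end up showed the same order when pooled by group, but not family by family. The families were chosen after values had been seen. Of 117 compared genes of membrane and secreted families, which include collagens, laminins, integrins, cadherins, cathepsins, syndecans and solute carriers, 75 were at least 2-fold lower in the culture and 1 was higher (median -1.49). In the tail 36 of 57 were lower and none higher (-1.63). The largest of these families in the culture, the Tmem genes of membrane proteins, with 42 of the 117, had 13 lower and none higher (median -0.41), and 2 of 17 lower in the tail (-0.19). All 22 collagen genes compared in the culture were lower, and 17 of 19 in the tail. Solute carriers of the plasma membrane and other cell membranes were lower for 20 of 28 genes in the culture. The carriers of the Slc25 family, which sit in the inner mitochondrial membrane and are made in the cytosol, were lower for 2 of 11. Their medians were -1.48 and 0.43. Mitochondrial ribosome genes, encoded in the nucleus, had medians of 0.44 and 0.80, with 2 of 68 and 10 of 50 at least 2-fold higher and none lower. Cytosolic families had medians of 0.08 and 0.60 and nuclear families -0.10 and 0.23. The largest nuclear family, the Zfp genes, lay lower than the Tmem genes in both libraries. Of its genes 14 of 50 were at least 2-fold lower in the culture (median -0.51) and 9 of 22 in the tail (-0.74). Over all genes 19.7% and 17.6% were lower.

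The genes lower in cluster 7 had longer coding sequences than those higher. Of the genes at least 2-fold lower, the median protein had 729 residues in the culture and 638.5 in the tail, and of those higher, 216.5 and 228.5, beside 391 and 354 over all compared genes with a known length. The median log2 ratio went from 0.51 for proteins under 150 residues to -1.08 for those of 1200 or more in the culture, and from 0.64 to -0.91 in the tail. Within a length class the membrane and secreted families still lay below the other genes, but by little under 150 residues. In that class their medians were 0.28 against 0.52 in the culture and 0.21 against 0.65 in the tail. None of their 12 and 8 genes there was at least 2-fold lower. Between 300 and 600 residues their median was -1.57 against 0.02 in the culture and -1.85 against 0.30 in the tail. Between 600 and 1200 residues it was -2.19 against -0.51 and -2.45 against -0.27.

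Of 5 rows of the tables that overlap ribosomal RNA genes, 2 were at least 2-fold higher and 1 lower in the culture, and 3 higher and 1 lower in the tail. Summed over cells, they made up 0.775% of the UMIs of the culture cluster and 1.66% of the tail cluster, against 0.478% and 0.658% in the other cells and 1.11% and 1.90% in other cells of like depth. The median cell of cluster 7 held 0.690% in the culture and 1.61% in the tail, and the median other cell of like depth 0.658% and 1.48%, so that sums and medians differ in order. *CT010467.1*, the row with the highest ratio, stood at 691 CPM (618 to 770) against 127 CPM in the culture and 1341 CPM (1193 to 1502) against 304 CPM in the tail. *Gm26917*, the lower row, was 4.71-fold lower in the culture and 3.09-fold lower in the tail, on 17 and 8 UMIs.

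Of 23 proliferation genes compared in the culture 1 was at least 2-fold higher and 3 were lower (median 0.16), with 3.17% and 19.7% over all genes. In the tail 9 of 20 were higher and none lower (0.76), with 9.80% and 17.6% over all genes. *Cdk1*, the kinase that drives entry into mitosis, was 2.06-fold higher in the culture and 3.65-fold higher in the tail. It was the 1 gene of this list counted as higher in the culture. Without the cell richest in it, its culture log2 ratio was 0.99, below 2-fold. *Ube2c*, the ubiquitin enzyme of mitotic exit, stood at 867 CPM (785 to 955) against 436 CPM, and at 812 CPM (698 to 939) against 245 CPM. *Top2a*, the topoisomerase of dividing cells, was 2.23-fold lower in the culture and stood within 2-fold in the tail (ratio 0.882, 0.662 to 1.15). Against cluster 1 alone, in place of all other cells, the log2 ratio of *Top2a* in the culture was 1.06 in place of -1.16, and against other cells of like depth 0.56, so that its direction depends on the cells it is set against. *Mki67*, a coat of mitotic chromosomes, was 3.65-fold lower in the culture.

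Among the targets of p53, 3 of 12 were at least 2-fold higher in the culture and none lower (median 0.47), with 3.17% and 19.7% over all genes. *Phlda3*, which opposes Akt, stood at 458 CPM (399 to 523) against 188 CPM and was found in 116 of the 257 cells. *Cdkn1a*, the cell cycle inhibitor p21, stood at 983 CPM (896 to 1077) against 452 CPM in 150 cells. Clusters 8 and 9 of the culture had *Cdkn1a* at 971 and 2125 CPM, so that its level was not particular to cluster 7. *Pmaip1*, the death gene Noxa, was 2.23-fold higher in 38 cells. Only 1 gene of this list could be compared in the tail. Immediate early and heat shock genes had a median of -0.03 in the culture and -0.70 in the tail, where 5 of 11 were lower. *Fos* and *Jun*, partners in the AP-1 factor, were 6.17-fold and 2.98-fold lower in the tail, and *Hspb1*, a small heat shock protein, was 7.11-fold higher in 28 of the 86 cells. *Jun* and *Hspb1* stood within 2-fold in the culture.

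Markers of other cells were checked as whole lists. Blood was low against the pooled other cells, since erythroid genes summed to 44.5 CPM in the culture cluster and 901 CPM in the other cells, and to 745 CPM and 56423 CPM in the tail. Those pooled cells include blood clusters. Among the culture clusters, cluster 7 ranked 3, 2 and 3 from the highest for the haemoglobin genes *Hbb-y*, *Hbb-bt* and *Hbb-bs*, on 8, 7 and 1 UMIs. Among the tail clusters it ranked 5, 11 and 11. Macrophage genes had 2 UMIs in all in the culture cluster and 10 in the tail cluster. Platelet genes had 261 and 8 UMIs, and 243 of the former were *Pf4* in 1 culture cell. Pluripotency genes were at least 2-fold lower for 6 of 6 in the culture, though not against cluster 1 alone (median log2 ratio 2.69), and *Tdgf1*, a co-receptor of Nodal, had 1 UMI. In the tail 2 of the 9 endothelial genes could be compared and both were higher, beside 9.80% of all genes. One of these, *Egfl7*, secreted by endothelium, stood at 296 CPM (229 to 377) against 87.7 CPM, in 17 cells. *Egfl7* passed the minimum of UMIs only by its level in cluster 7, so that its count as higher is no support. Against the mix of closest clusters the log2 ratio of *Egfl7* was -0.48. Muscle genes were higher for 3 of 7 and lower for 2 in the tail. Of the muscle UMIs there, 38 of the 40 of *Myh3* and 44 of the 48 of *Tnnt2* came from 1 cell each. Neural genes of the tail were higher for 1 of 5 and lower for 3 (median -1.96, and 0.94 against cluster 1 alone). The part these cells play in the ratios was not tested beyond the assignment given next.

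Each cluster 7 cell was compared with the summed profile of every other cluster of its library that had at least 40 cells, and was given the cluster under which its counts were most likely. Cells of the other clusters, thinned to the depths of cluster 7, were returned to their own cluster in 83.6% (1261 of 1509) of cases in the culture and 89.5% (1255 of 1402) in the tail. By cluster, the culture returned 71.0% for cluster 1 and 47.0% for cluster 6, and 87.0% or more for the others, and the tail 75.2% or more for each. In the culture 108 cells were closest to cluster 2 (42.0%), which had the highest *Scx* and 1409 CPM of *Top2a*. A further 65 were closest to cluster 1 (25.3%), 34 to cluster 8 (13.2%), which expressed *Krt18*, and 26 to cluster 5 (10.1%). Cluster 5 ranked 3 from the highest for *Epcam* (669 CPM) and had the highest *Myog* (36.8 CPM) of the culture clusters. Without ribosomal, mitochondrial, ribosomal RNA, cytoskeletal and annexin genes 47 cells (18.3%) were closest to cluster 5. Of the other culture cells 17.9%, 39.2%, 2.05% and 7.35% belonged to these clusters. In the tail 19 cells each were closest to cluster 8, which expressed *Krt14*, and cluster 11, which expressed *Pecam1*, with 13 closest to cluster 2, 12 to cluster 5, which expressed *Myog*, 9 to cluster 3 and 7 to cluster 1. Cluster 1 held 34.8% of the other tail cells and drew 8.14% of cluster 7. The assignment is not a cell type.

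These groups of cells differed in their markers. The 34 culture cells closest to cluster 8 had *Krt18* at 6576 CPM and *Scx* at 214 CPM. The 108 closest to cluster 2 had *Scx* at 4127 CPM and *Krt18* at 20.7 CPM. The 65 closest to cluster 1 had *Acta2* at 4575 CPM. In the tail the 13 closest to cluster 2 had *Scx* at 4404 CPM, and at 651 CPM without the 1 cell that held 110 of its 125 UMIs. The 19 tail cells closest to cluster 8 had *Krt14* at 1183 CPM, where cluster 8 itself had 2446 CPM. *Krt14* was higher, at 3155 CPM, in the 9 tail cells closest to cluster 3. Other markers stayed far below the cluster of assignment. The 12 tail cells closest to cluster 5 had *Myog*, a muscle transcription factor, at 27.5 CPM, where that cluster had 1331 CPM, and 38 of the 40 UMIs of *Myh3*, a muscle myosin, in the tail cluster came from 1 cell. The 19 closest to cluster 11 had *Pecam1* at 234 CPM, where that cluster had 1186 CPM. The assignment used the same genes, so that these levels are no check of it.

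They shared their low nuclear, mitochondrial and ER transcripts. In every group of 10 or more cells, *Malat1*, mitochondrial and ER transcripts were lower, and actin transcripts higher, than in the cluster the cells were closest to. *Malat1* stood at 660 CPM in the culture cells closest to cluster 1 and 13196 CPM in that cluster, at 2841 and 13599 CPM for cluster 2, at 2572 and 5483 CPM for cluster 5, and at 1468 and 17552 CPM for cluster 8. In the group closest to cluster 5, 168 of the 179 *Malat1* UMIs came from 1 cell, and the other 25 cells stood at 213 CPM. In the tail it stood at 395 CPM in the cells closest to cluster 11 and 10707 CPM in that cluster, at 934 and 9304 CPM for cluster 5, at 1451 and 8334 CPM for cluster 8, and at 3135 and 14963 CPM for cluster 2. Without the cell richest in *Malat1* the tail groups of clusters 5 and 8 stood at 591 and 940 CPM.

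**Figure D5:**
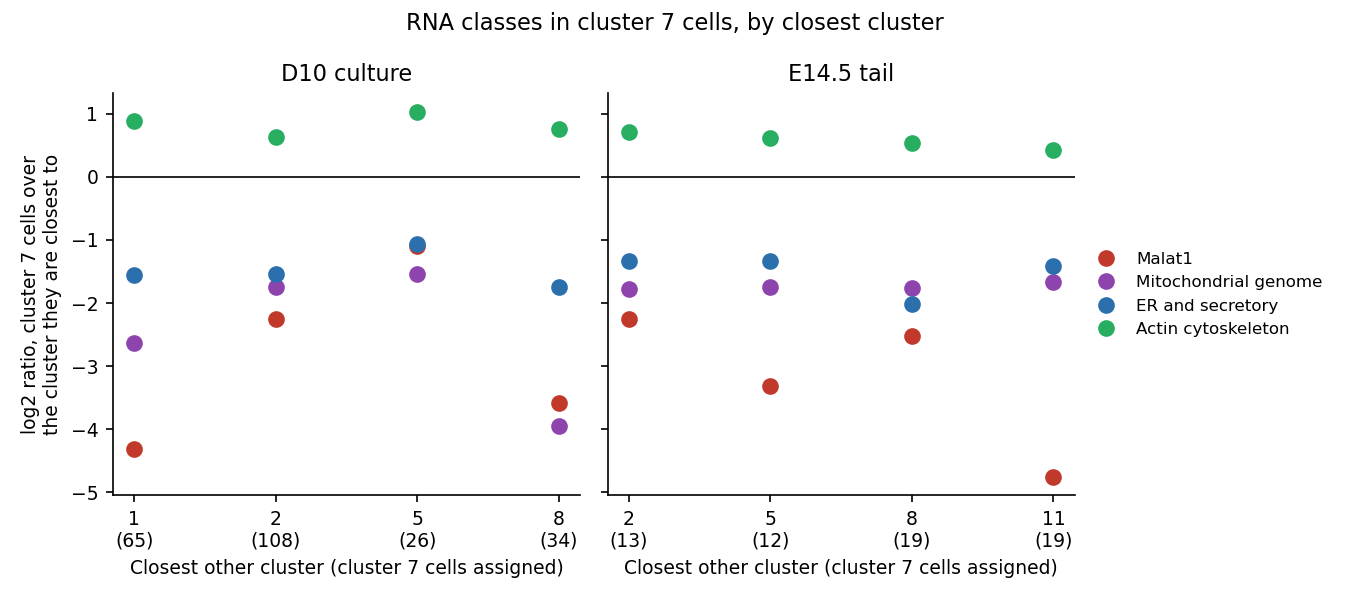
log2 ratio of the level in the cluster 7 cells closest to a cluster over that in the cluster itself, for *Malat1*, the mitochondrial genome, ER genes and actin genes, in the D10 culture (left) and the E14.5 tail (right), with the number of cluster 7 cells in brackets and groups of under 10 cells left out. All 8 groups lie below 0 for *Malat1*, the mitochondrial genome and the ER genes, and above 0 for the actin genes.

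Within cluster 7 these RNAs were unevenly spread over the cells. The tenth of the culture cells with the most UMIs of the gene (26 cells) held 78.0% of the *Malat1* UMIs, 51.7% of those of *Scx*, 79.6% of *Acta2*, 92.0% of *Krt18*, 92.8% of *S100a6* and 33.7% of *Tmsb4x*. In the tail the top 9 cells held 81.9% of the *Malat1* UMIs, 94.6% of *Scx*, 76.6% of *Krt14* and 44.5% of *Tmsb4x*. These shares also depend on how many UMIs a gene has per cell. Culture cells with no *Malat1* UMI had *Scx* at 2286 CPM and *Col1a1* at 189 CPM, and those with one had 2530 and 295 CPM. Their mitochondrial shares were 0.324% and 0.549%, their ER shares 0.526% and 0.597%, and their actin shares 4.92% and 4.29%. In the tail the order of the mitochondrial shares was the reverse, 1.65% in cells with no *Malat1* UMI and 0.964% in those with one. In the culture the cells below the median of UMIs had *Malat1* at 1152 CPM and *Scx* at 2479 CPM, and those above it had 2201 and 2351 CPM.

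The deepest cells stood apart. The tail cell of 18762 UMIs, 8.42% of the UMIs of its cluster, was closest to cluster 4 and held 304 of the 551 *Malat1* UMIs of the tail cluster, 268 UMIs of *Car3*, a carbonic anhydrase, 52 UMIs of *Spp1*, osteopontin, 49 of *Krt8* and 25 of *T*, brachyury, the factor of the notochord and early mesoderm. The other tail cell, of 12994 UMIs, held 4 *Malat1* UMIs and was closest to cluster 11. The culture cell of 17979 UMIs was closest to cluster 5 and held 168 *Malat1* and 13 *Scx* UMIs. *Car3*, *Spp1*, *T* and *Krt8* were among the largest ratios of the tail cluster, with most of their UMIs in that cell. All 25 UMIs of *T* were there. Without that cell the log2 ratios of *Car3*, *Spp1* and *Krt8* were 0.90, -0.67 and 2.05. *Krt8* was found in 2 tail cells in all, so that its value then rests on the other cell alone.

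Genes at least 2-fold apart were set side by side between the libraries. Of the 2602 genes compared in both, 298 were at least 2-fold lower in each, 69.0% of the 432 lower in the culture and 69.6% of the 428 lower in the tail. The lists of higher genes were shorter, and 26 genes were higher in each, 35.1% of the 74 higher in the culture and 11.8% of the 220 in the tail. None was higher in the culture and lower in the tail, and 5 showed the reverse. Across these genes the log2 ratios of the libraries had a Pearson correlation of 0.76, a description over genes, which are not independent replicates, in clusters that were defined on both libraries together.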

How the data were processed

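Single-cell counts were analysed for 3 libraries (D10 culture, E14.5 tail, D6 PM), 1 per condition, so no tests were made. The authors deposited raw UMI counts of each gene in each cell, not normalized, from 10x 3′ v3 libraries, and the submitters' processing notes name Cell Ranger and Seurat 3.0. The authors removed cells with a mitochondrial share over 7.5% and the 2% of cells at either end of the range, so that cells beyond these limits are not in the comparison. The genome build is not given in the sources used here. The first row of each table is the cluster code. The members and lists were chosen with earlier results of these data known, and the gene families after seeing values.

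UMIs were summed over the cells of a cluster, divided by all UMIs and given as CPM with exact Poisson intervals, ratios with exact conditional binomial intervals and shares with Clopper-Pearson intervals, at 95%. Genes had at least 20 UMIs observed or expected in cluster 7, and a fold of 2 was counted. On simulated counts with 200 genes changed 4-fold this recovered 200 in the culture (and called 14 unchanged genes among 4848 compared) and 200 in the tail (30 among 2335). Cells were thinned to 700 UMIs. Genes could be named if in the lists or among the 15 largest ratios in each direction; all others named were chosen after their values were seen. Coding lengths came from GENCODE M21, for 98.3% and 98.1% of the genes compared. Scrublet, run with an expected doublet rate of 6%, marked 116 in the culture (1.48%) and 9 in the tail (0.439%), and these cells were kept except in an alternative. Alternatives varied the cells of cluster 7, the cells it was set against, the filter, the fold, the scaling and the thinning depth. Python 3.11.15, NumPy 2.4.6, SciPy 1.17.1, Scanpy 1.11.5 and Matplotlib 3.10.9 were used.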

Additional observations from a re-analysis of the deposited data

Results flagged for a closer look

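Of the genes at least 2-fold apart in both libraries, 5 were lower in cluster 7 of the culture and higher in cluster 7 of the tail, in log2 ratios over the other cells. The difference between libraries was not tested, with 1 library each, and *Mylpf*, *Pycard* and *Htra1* are named because of these values. *Spp1*, osteopontin, stood at -3.13 in the culture and 3.96 in the tail, where 52 of its 54 UMIs came from 1 cell. *Mylpf*, a myosin light chain of fast muscle, stood at -2.94 and 1.08, with 82.2% of its tail UMIs in 1 cell. *Htra1*, a secreted protease, stood at -2.44 and 1.12, with 96.9% of its tail UMIs in 1 cell. *Egfl7* stood at -1.60 and 1.75, from 9 culture cells and 17 tail cells. *Pycard*, an adaptor of the inflammasome, stood at -1.24 and 1.95, from 7 and 17 cells. Against the mix of closest clusters *Pycard* of the culture stood at 0.59 and *Egfl7* of the tail at -0.48, and against cluster 1 *Pycard* of the culture stood at 2.48, so that these contrasts depend on the cells cluster 7 is set against.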

How the results depend on the processing

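No paired analysis was possible because each condition is 1 library. For the same reason no replicate could be left out. The number of genes at least 2-fold higher in cluster 7, 158 in the culture and 268 in the tail, was 456 and 822 against other cells of like depth, 95 and 87 against the mix of closest clusters, 98 and 109 with a minimum of 50 UMIs, 12960 and 13780 with no minimum, and 34 and 55 at 3-fold. Against cluster 1 it was 335 in the culture. In the tail it was 126 over the cells with no *Malat1* UMI and 119 with ratios divided by their median. With no minimum, a gene without a UMI in cluster 7 was set to 3 counts and can be counted as higher. The number at least 2-fold lower, 980 and 482, was 383 and 128 with a minimum of 50 UMIs, 3083 and 2563 with no minimum, and 508 and 278 at 3-fold. In the tail it was 561 against cells of like depth, 730 against cluster 1 and 91 over cells with no *Malat1* UMI, a choice made after seeing the data that leaves fewer UMIs. All other settings kept these counts within 1.5-fold.

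Of the list medians past 2-fold, 13 of 15 in the culture and 7 of 11 in the tail kept their direction in all settings, and 8 and 6 stayed past 2-fold in all. The exceptions, in log2 ratios, were epithelium (-0.78 in the culture and -0.0811 in the tail) and tail endothelium (-0.65) against the mix, culture pluripotency (2.69) and tail neural genes (0.94) against cluster 1, and the tail rows overlapping ribosomal RNA against cells of like depth (-0.34). Of the named genes past 2-fold, 38 of 44 and 31 of 39 kept theirs, and 24 and 20 stayed past 2-fold in all. *Scx* of the tail, at -0.20, gave 1.44 against cells of like depth and 0.63 against the mix. Against cluster 1 the culture gave *Cdh1* 2.97, *Epcam* 2.46, *Pycard* 2.48, *Mylpf* 0.72, *Tdgf1* 0.0911 and *Top2a* 1.06, and the tail gave *Myog* 2.70. Against the mix *Pycard* of the culture gave 0.59, and the tail gave *Egfl7* -0.48, *Krt14* -0.35, *Krt5* -0.29 and *Mylpf* -0.11. Against cells of like depth *Top2a* of the culture gave 0.56. Without the cell richest in the gene, chosen after seeing the data, the tail gave *Htra1* -3.75, *Mylpf* -1.40, *Spp1* -0.67 and *Krt19* -0.15, and values already low went lower for *Calr* (-2.50), *Col1a2* (-4.24), *Kcnq1ot1* (-4.61) and *Meg3* (-3.83), as for *Kcnq1ot1* (-3.84) and *Cdh1* (-3.37) in the culture. Without cells above 10000 UMIs *Htra1* gave -3.65, *Spp1* -0.58 and *Krt19* -0.0522, and over cells with no *Malat1* UMI *Htra1* gave -2.13 and *Krt19* -0.11. With the mean over cells in place of the sum *Htra1* gave -1.35. These directions depend on the cells cluster 7 is set against, or on single cells.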

Other observations

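Cells with no *Malat1* UMI and at most 1 mitochondrial UMI at 700 UMIs were also found outside cluster 7. In the culture they numbered 78 of 7564 other cells, of which 71 were in cluster 6, where they made up 16.3% of the cells. In the tail they numbered 20 of 1966, of which 15 were in cluster 12, whose RNA was largely of haemoglobin genes. In D6 PM, where no code marks them, 243 of 5914 cells that could be thinned had this make-up (4.11%, 3.62 to 4.65%), with a median of 1942 UMIs before thinning against 8171 over all cells of that library. They fell in all 6 of its clusters, 101, 25, 55, 7, 49 and 6 in clusters 1 to 6.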
